A study of Ostrinia furnacalis with 9 samples.

Results

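Places marked by repressive histone methylation at the very beginning of assembled scaffolds were examined in larval heads of the Asian corn borer, Ostrinia furnacalis. Peaks of the 6 deposited lists that shared at least 1 bp were merged into places, with the single NC_ sequence left out, and a place was kept when its leftmost peak began in the first 2000 bp of a scaffold. This gave 359 scaffold-start places among 10958 places in all, or 3.28%, on 349 of the 1418 scaffolds that held a peak. The 1709 places that began farther in on those same scaffolds are called inner places and serve for comparison. They lay on 149 of the 349 scaffolds, and the other 200 had none. Scaffold lengths were not used, so some inner places may lie at the far end of a scaffold.

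The series profiled H3K9me3 and H3K27me3 by ChIP-seq in heads of non-diapause, pre-diapause and diapause larvae, with 1 peak list for each mark and stage. All insects came from a field-collected stock kept at 27 °C in a light-dark cycle of 16 h to 8 h. Freshly moulted larvae moved to 20 °C and a light-dark cycle of 12 h to 12 h were pre-diapause after 20 days and in diapause after 30 days or more. The labels give no separate rearing for non-diapause larvae and no number of animals in a sample. Since heads hold many tissues, fewer cells carrying a mark and less mark in each cell cannot be told apart.

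Trimethylation of lysine 9 of histone H3 is known from heterochromatin, where it is bound by HP1 proteins and keeps transposons and tandem repeats silent. Trimethylation of lysine 27 is laid down by the Polycomb repressive complex and is known from developmental genes that are held off. Moth chromosomes are holocentric and so lack the large single block of centromeric heterochromatin seen in many animals. A scaffold start is the point where the assembly of a stretch of sequence stopped, and it need not be the end of a chromosome.

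Most of these places lay close to the first base, and the larger part sat on scaffolds with no inner place. The median place began at base 472, 186 places (51.8%) began within 500 bp, 47 within 100 bp, and 4 at base 1 itself. Of the 359 places, 203 lay on the 200 scaffolds without an inner place. There the farthest peak end in any list ranged from 323 to 3747 bp, with a median of 1035 bp. The other 149 scaffolds, holding 156 of the places, had peaks reaching to a median of 206605 bp. Places were short, with a median width of 507 bp against 601 bp for inner places, and 10 of the 359 were wider than 2000 bp against 90 of the 1709.

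Marked places were denser at scaffold starts than behind them in the lists of both marks, while places of H3K27me3 alone were not detectably so. This was measured on the 789 scaffolds with a peak end at 100 kb or farther, a condition that does not depend on the start. Places began there at 63.4 per Mb in the first 2000 bp (100 places) and at 26.5 per Mb in the rest of the first 100 kb (2052 places), a ratio of 2.39 (95% interval 1.93–2.92). For places with H3K9me3 only the ratio was 2.94 (2.07–4.06), for places with both marks 2.54 (1.88–3.36), and for places with H3K27me3 only 1.18 (0.561–2.19), the last from 10 places in the first 2000 bp. By list, whatever else was called at the place, the ratio was 2.71, 2.76 and 3.08 for H3K9me3 by stage and 2.22 (1.497–3.18), 2.22 (1.66–2.91) and 2.08 (1.39–2.99) for H3K27me3. These and all later intervals cover counting error only and treat neighbouring places as independent.

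Density was highest in the first 500 bp and had levelled out beyond 5000 bp. Places began at 112 per Mb in the first 500 bp, 53.2 from 501 to 1000 bp, 44.4 from 1001 to 2000 bp and 33.8 from 2001 to 5000 bp, and stayed between 25.3 and 28.1 per Mb beyond. A place cut by the start of a scaffold is counted as beginning there, so the bases covered were measured as well. Places covered 3.98% of the first 2000 bp and 2.05% of the rest of the first 100 kb, a ratio of 1.94. By covered bases the ratio was 2.38 for H3K9me3 only, 2.17 for both marks and 0.585 for H3K27me3 only. These ratios have no interval. The last rests on the 10 places of that class that began in the first 2000 bp. By place starts that class had a ratio of 1.18 (0.561–2.19), so the direction of its difference is uncertain.

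**Figure D1:**
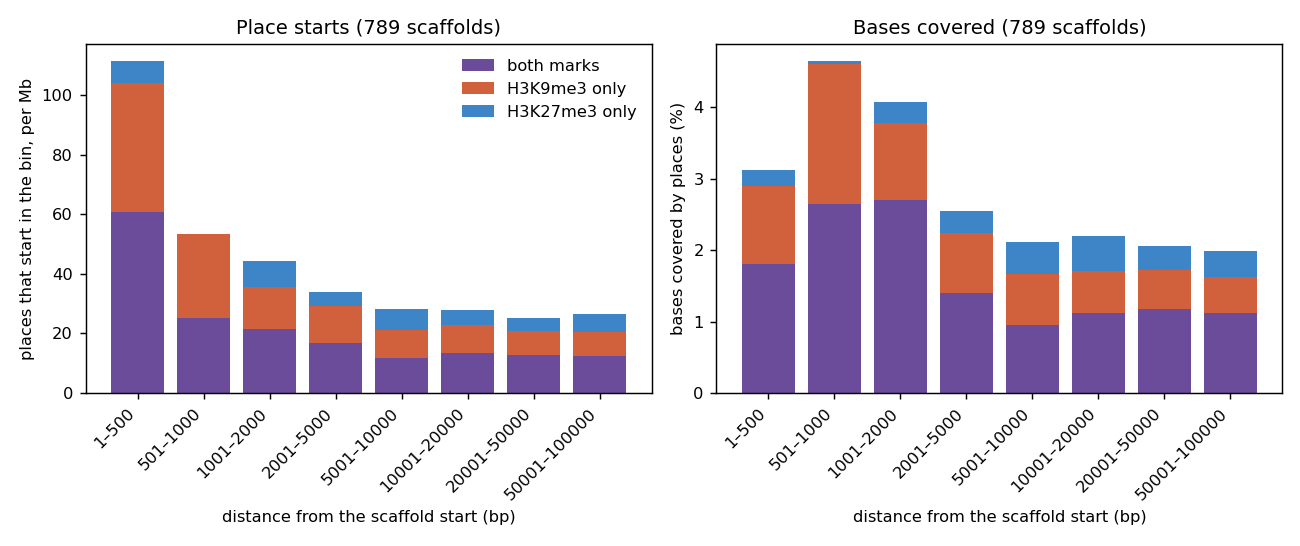
Places by distance from the scaffold start on the 789 scaffolds with a peak at 100 kb or farther, as place starts per Mb (left) and as percent of bases covered (right). Colours separate places with both marks, H3K9me3 only and H3K27me3 only at any stage. Place starts per Mb fall from 112 in the first 500 bp to 26.4 at 50001–100000 bp, and covered bases peak at 4.65% between 501 and 1000 bp.

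The lists of every stage placed H3K9me3 peaks at a larger share of scaffold-start places than of inner places, and H3K27me3 peaks at a smaller share. An H3K9me3 peak was listed in 150 of the 359 places (41.8%) in the non-diapause list, 278 (77.4%) in the pre-diapause list and 139 (38.7%) in the diapause list. Among all 10958 places the shares were 40.4%, 65.7% and 31.6%, and among inner places 36.7%, 57.9% and 30.3%. An H3K27me3 peak was listed in 108 (30.1%), 178 (49.6%) and 109 (30.4%) of the scaffold-start places in the same order. The shares of all places were 33.7%, 59.1% and 34.3%, and those of inner places 34.9%, 59.9% and 37.2%. For both marks the pre-diapause list, the longest of its mark, held more scaffold-start places than the lists of the other stages.

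Over all scaffold-start places the gap was widest at pre-diapause, whose lists are the longest of each mark. The gaps by stage are not given here for lists of equal length. At pre-diapause the share with H3K9me3 was 19.5 percentage points above that of inner places (interval 14.4 to 24.2). The share with H3K27me3 differed by -10.3 points (-15.9 to -4.62). At diapause the differences were 8.41 points (3.03 to 13.97) and -6.79 points (-11.9 to -1.36). At non-diapause both intervals included 0, with 5.09 points (-0.404 to 10.7) and -4.85 points (-9.91 to 0.563). Scaffold NW_021135154.1 alone held 257 of the inner places, 220 of them with H3K27me3 only. Without that scaffold the pre-diapause differences were 11.8 points (6.65 to 16.5) and -9.65 points (-15.4 to -3.89). The diapause differences were then 4.29 points (-1.21 to 9.98) and -3.28 points (-8.46 to 2.22), and the non-diapause difference for H3K9me3 was 0.139 points (-5.48 to 5.89). Against all inner places, NW_021135154.1 included, the 156 scaffold-start places that shared a scaffold with inner places gave the widest H3K27me3 gap at diapause. Their non-diapause interval for H3K9me3 did not include 0. For H3K9me3 they differed from the inner places by 10.1 points (2.11 to 18.2) at non-diapause, 18.4 (10.7 to 24.8) at pre-diapause and 12.0 (4.198 to 20.1) at diapause. For H3K27me3 the differences were -2.88 (-10.1 to 5.11), -9.22 (-17.3 to -1.14) and -10.9 points (-17.6 to -3.12). With equal weight for each scaffold, H3K27me3 shares at scaffold-start and inner places were 51.3% and 58.0% at pre-diapause. At diapause they were 26.8% and 31.9%, so the widest gap was then at pre-diapause. Non-diapause H3K9me3 shares were 47.3% and 41.7%, without an interval.

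**Figure D2:**
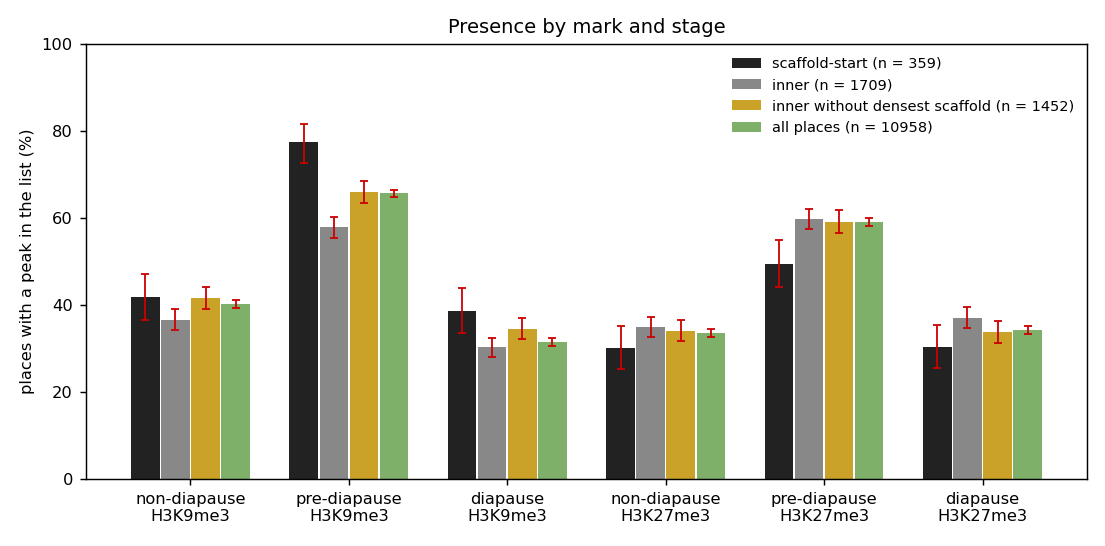
Share of places with a peak in each of the 6 lists, in percent, with exact binomial 95% intervals as red bars. Black bars are the 359 scaffold-start places, grey the 1709 inner places, yellow the 1452 inner places without NW_021135154.1, and green all 10958 places. The black bar stands above the others at pre-diapause H3K9me3 (77.4%) and below them at pre-diapause H3K27me3 (49.6%).

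Over the 3 stages, 159 scaffold-start places (44.3%, interval 39.1–49.6) had H3K9me3 peaks and never an H3K27me3 peak, 36 (10.0%, 7.12–13.6) had H3K27me3 only, and 164 (45.7%, 40.4–51.0) had both. The shares among all places were 31.3%, 21.4% and 47.3%. Among inner places they were 27.9%, 30.4% and 41.7%. H3K9me3 alone was thus 16.4 points more frequent at scaffold starts than among inner places (10.9 to 22.0). H3K27me3 alone differed by -20.4 points (-23.9 to -16.3). Without NW_021135154.1 these differences were 12.0 points (6.40 to 17.7) and -10.9 points (-14.3 to -6.80). With each list held to its 3505 strongest peaks they were 9.44 points and -6.38 points. The share with both marks differed by 4.02 points, with an interval that included 0 (-1.58 to 9.69).

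On the 149 scaffolds that had both kinds of place, the mean shares with each scaffold given equal weight had the same order. H3K9me3 alone made up 41.6% of their scaffold-start places and 33.7% of their inner places. H3K27me3 alone made up 9.73% and 18.4%. Some H3K9me3 peak was present at 90.3% and 81.6%, and some H3K27me3 peak at 58.4% and 66.3%. Counts by scaffold do not decide the order, because most of these scaffolds held a single scaffold-start place. Its share was then all or none, set against a fractional inner share. Rare classes so tend to come out lower and frequent ones higher. A peak in all 6 lists came out lower on 72 scaffolds and higher on 14, with mean shares of 9.06% and 11.0%. The scaffold-start share was the higher on 54 scaffolds and the lower on 65 for H3K9me3 alone, and on 13 and 83 for H3K27me3 alone. For any H3K9me3 it was the higher on 83 and the lower on 13, and for any H3K27me3 on 65 and 54.

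Among the scaffold-start places themselves, the mix of marks differed by less than counting error between the scaffolds with and without inner places. H3K9me3 alone was found at 45.8% of the 203 places on scaffolds without an inner place and at 42.3% of the 156 others, a difference of 3.51 points (-6.82 to 13.7). H3K27me3 alone was found at 10.3% and 9.62%. By distance, the share of H3K27me3 alone was 6.25% (2.55–12.5) of the 112 places that began in the first 250 bp and 14.1% (7.51–23.4) of the 85 that began between 1001 and 2000 bp. Places with both marks made up 53.6% (43.9–63.0) of the first 250 bp, 48.6% (36.9–60.6) of the next 250 bp and 33.0% (23.3–43.8) of the stretch from 501 to 1000 bp. From 501 to 1000 bp H3K9me3 alone was the largest class, with 50 of 88 places (56.8%).

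The most frequent combination was a peak in the pre-diapause H3K9me3 list and in no other. It was found at 85 scaffold-start places (23.7%, 19.4–28.4), at 14.5% of inner places and at 17.2% of all places. These 85 were moderate peaks, with folds from 1.45 to 5.83, a median of 3.09 and a median rank at percentile 42.1 of their list. All 6 lists had a peak at 37 places (10.3%, 7.36–13.9), close to the 11% of all places and the 10.1% of inner places. H3K9me3 at pre-diapause and diapause with nothing else followed with 27 places (7.52%, against 4.21% of inner and 4.44% of all places). Both marks at non-diapause and pre-diapause, and neither at diapause, were found at 25 places (6.96%, against 4.68% of inner and 5.58% of all places). H3K9me3 at diapause alone was found at 24 places (6.69%, against 4.39% of inner and 4.61% of all places). H3K27me3 at pre-diapause alone was found at 22 places (6.13%, against 12.0% of inner and 10.2% of all places). H3K27me3 at diapause alone was found at 4 (1.11%, against 6.32% of inner and 4.10% of all places). Without NW_021135154.1 the inner shares of these combinations were 10.1% and 3.65%. Of the 63 possible combinations 42 were seen.

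**Figure D3:**
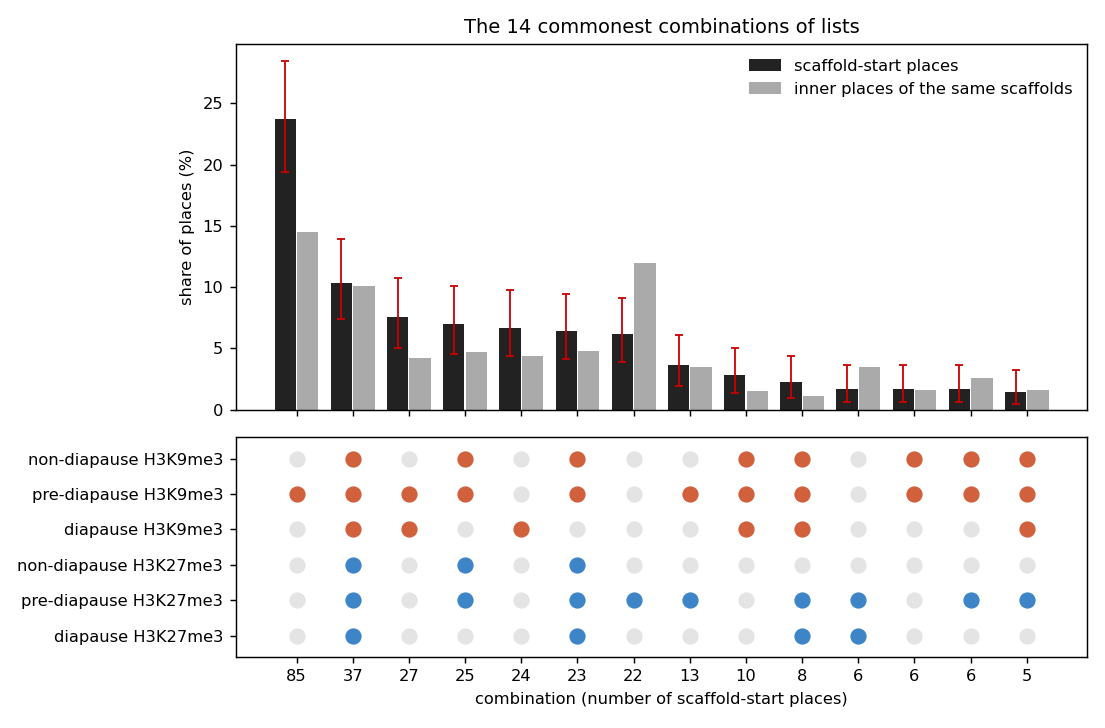
The 14 commonest combinations of lists among the scaffold-start places. Bars give the share of scaffold-start places (black, with exact 95% intervals in red) and of inner places (grey) in percent, dots below show which lists had a peak, and the number under each column counts scaffold-start places. Pre-diapause H3K9me3 alone leads with 85 places and stands above its inner share of 14.5%.

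Between non-diapause and diapause, H3K9me3 calls at scaffold starts changed place in both directions. Of the 150 places with a non-diapause peak, 77 (51.3%, 43.0–59.6) had a diapause peak too, and 73 did not. Those 73 were 20.3% of the scaffold-start places, against 21.9% of all places. A further 62 (17.3%, 13.5–21.6) had a diapause peak and no non-diapause peak, against 13.2% of all places and 12.8% of inner places. For H3K27me3, 69 of the 108 non-diapause places (63.9%, 54.1–72.9) had a diapause peak too. The 39 without one were 10.9% of the places, against a background of 12.7%, and the 40 called at diapause without a non-diapause peak were 11.1%, against 13.4%. With each list held to its 3505 strongest peaks, which left 279 scaffold-start places, the order turned for H3K9me3. There 58 places had only the non-diapause peak of the pair and 73 only the diapause peak. The shares of all places in these shorter lists are not given here. Whether the turn is particular to scaffold starts is therefore not known. With 1 list a stage none of these differences could be set against replicate error, and no test between stages was made.

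Pre-diapause lists contained most of the scaffold-start places of the non-diapause lists. A total of 18 places had H3K9me3 at non-diapause without a pre-diapause peak (5.01%, background 6.53%), and 8 had H3K27me3 so (2.23%, background 3.26%). In the opposite direction 146 places had H3K9me3 at pre-diapause and not at non-diapause (40.7%, 35.5–45.9), above the 31.9% of all places and the 26.7% of inner places. For H3K27me3 this number was 78 (21.7%, 17.6–26.4), below the 28.7% of all places. Against diapause, 174 places had H3K9me3 at pre-diapause alone of the pair (48.5%, background 41.8%) and 86 had H3K27me3 so (24.0%, background 31.9%). A diapause peak without a pre-diapause peak was found at 35 places for H3K9me3 (9.75%, background 7.74%) and at 17 for H3K27me3 (4.74%, background 7.15%). The pre-diapause lists are the longest, and all these counts moved by over 1.5 times in lists of equal length. For H3K9me3, 33 places then had a non-diapause and no pre-diapause peak and 72 the reverse, and 89 had a pre-diapause and no diapause peak and 65 the reverse. For H3K27me3 these counts were 24, 36, 51 and 42. No shares of all places are given beside these counts, so they have no background.

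Where H3K27me3 was called at a scaffold start, H3K9me3 was called at the same stage more often than at inner places. Of the scaffold-start places with H3K27me3, the share that also had H3K9me3 was 98 of 108 (90.7%, 83.6–95.5) in non-diapause heads, 140 of 178 (78.7%, 71.9–84.4) in pre-diapause heads and 59 of 109 (54.1%, 44.3–63.7) in diapause heads. The inner shares were 69.2%, 57.8% and 40%, and those of all places 78.6%, 66.3% and 46.5%. At pre-diapause the 78.7% was close to the 77.4% of all scaffold-start places that had H3K9me3. Without NW_021135154.1 the inner shares were 79.6% (75.8–83.1), 66.2% (62.9–69.3) and 49.5% (44.98–54.0), and at diapause the intervals then overlapped. In turn H3K27me3 was present at 65.3%, 50.4% and 42.4% of the scaffold-start places with H3K9me3 in stage order, against 65.9%, 59.7% and 49.0% of such inner places.

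Peaks at scaffold starts ranked high in fold on the scaffolds without an inner place, and lower on the others. Fold is the authors' enrichment over background, on a scale of its own in each list, so ranks within a list were used, with percentile 100 as the highest fold and the strongest peak of a place taken. On scaffolds without an inner place the median rank of H3K9me3 peaks was percentile 75.7, 64.1 and 71.4 in stage order, and that of H3K27me3 peaks 76.5, 72.5 and 73.7. On scaffolds with an inner place it was 44.4, 43.1 and 28.9 for H3K9me3, and 58.3, 50.4 and 35.5 for H3K27me3. Inner places had medians between percentile 40.9 and 50.8 in the 6 lists. By −log10 q, the authors' measure of how sure a call is, the contrast was smaller. The medians were 64.5, 59.4 and 72.5 for H3K9me3 and 70.4, 65.6 and 64.9 for H3K27me3 on scaffolds without an inner place. On scaffolds with one they were 55.2, 59.0 and 60.3 for H3K9me3 and 59.5, 57.1 and 55.8 for H3K27me3.

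The highest 10% by fold held a larger share of the places on scaffolds without an inner place in every list but pre-diapause H3K9me3. At diapause 24 of the 73 H3K9me3 places (32.9%) and 20 of the 68 H3K27me3 places (29.4%) on scaffolds without an inner place were in the highest 10% of the list. On scaffolds with an inner place these were 6 of 66 and 5 of 41, and among inner places 40 of 518 (7.72%) and 50 of 635 (7.87%). In the other lists the shares on scaffolds without and with an inner place were 24.7 and 12.3% for non-diapause H3K9me3, 27.6 and 22% for non-diapause H3K27me3 and 21.2 and 15.2% for pre-diapause H3K27me3. For pre-diapause H3K9me3 the order turned, with 19 of 159 (11.9%) and 17 of 119 (14.3%). Places with both marks ranked above those of a single mark by their median in every list, at scaffold starts and at inner places alike. The median rank at pre-diapause was percentile 76.5 for H3K9me3 at places with both marks and 36.2 at places with H3K9me3 only. For H3K27me3 at pre-diapause it was 70.9 and 51.6. Among inner places these medians were 64.4 and 25.2 for H3K9me3 and 57.5 and 28.4 for H3K27me3. At scaffold starts only 4 places carried H3K27me3 alone at non-diapause. At diapause there were 12, and the medians were close, at 65.2 and 61.1.

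**Figure D4:**
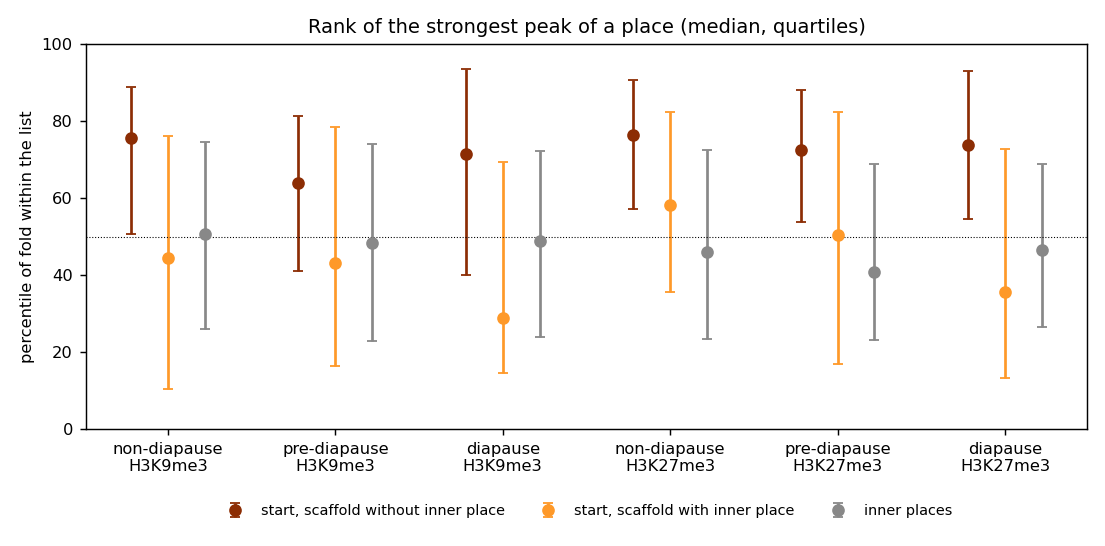
Rank of fold within each list, as the median (point) and quartiles (bars) over places, for scaffold-start places on scaffolds without an inner place (dark), on scaffolds with one (orange) and for inner places (grey). The dotted line marks the middle of a list. Dark points lie between percentile 64.1 and 76.5, above orange and grey in every list.

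The 37 places called in all 6 lists had a median width of 1055 bp, and 23 of them lay on scaffolds without an inner place. Their edges were close between lists, with a median range of 140 bp for the left edge and 155 bp for the right. The 10 named here are those whose lowest rank over the 6 lists was highest. All 10 stood at or above percentile 86.7 of fold in every list.

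The place on NW_021132339.1 at 3–530 led with H3K9me3 folds of 11.4, 16.7 and 6.41 by stage and H3K27me3 folds of 9.04, 13.1 and 16.3. Its lowest rank was percentile 99.2. NW_021136498.1 at 576–1850 followed with 11.4, 9.25 and 11.7 for H3K9me3 and 9.04, 10.4 and 10.8 for H3K27me3. These 2 places were among the strongest of each list at every stage, on scaffolds without an inner place.

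On NW_021134013.1 at 125–799 the folds were 7.62, 8.41 and 8.75 for H3K9me3 and 6.33, 7.30 and 6.93 for H3K27me3. On NW_021130313.1 at 1989–2584 they were 8.04, 9.56 and 6.03, and 6.12, 6.84 and 6.30. This place lies just inside the limit of 2000 bp, and its scaffold held 13 inner places.

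The place with the highest folds of all was NW_021134836.1 at 1–884, which began at the first base. Its H3K9me3 folds were 28.6, 39.7 and 4.36, and its H3K27me3 folds 19.4, 32.4 and 24.8. It ranked first in every list except diapause H3K9me3, where it stood at percentile 93.1.

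The remaining 5 stood lower by that rank. NW_021137606.1 at 312–2316 had H3K9me3 folds of 6.96, 7.91 and 4.34 and H3K27me3 folds of 5.24, 7.03 and 5.68. NW_021132601.1 at 1710–2509 had 6.58, 10.1 and 4.25, and 5.82, 7.52 and 6.62. By rank within the list, the former was lowest in non-diapause H3K27me3 (percentile 92.3) and the latter in diapause H3K9me3 (92.1). NW_021130324.1 at 370–2042, NW_021136680.1 at 71–460 and NW_021135978.1 at 82–992 had folds between 4.26 and 5.998 in all lists.

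**Figure D5:**
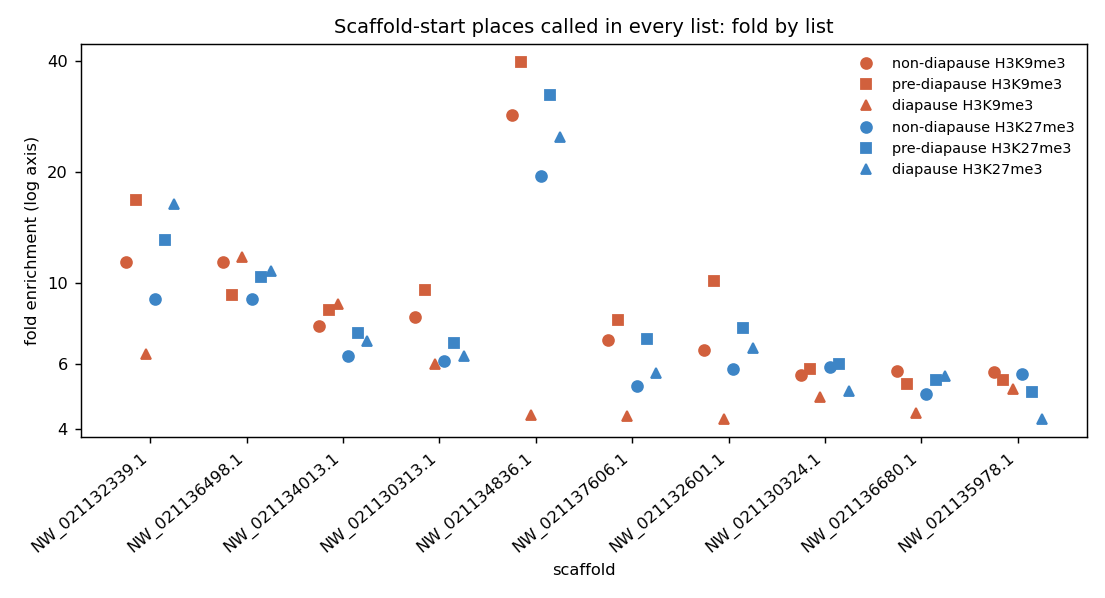
Fold enrichment, on a log axis, in each of the 6 lists at the 10 named places called in every list, ordered by their lowest rank. Red symbols are H3K9me3, blue H3K27me3, with circles for non-diapause, squares for pre-diapause and triangles for diapause. Each list has its own scale of fold, and NW_021134836.1 spans from 4.36 to 39.7.

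Some strong scaffold-start places had both marks at the earlier stages and no listed H3K9me3 peak at diapause. NW_021135502.1 at 1113–1978 had H3K9me3 folds of 11.1 at non-diapause and 11.5 at pre-diapause and none listed at diapause. Its H3K27me3 folds were 11.5, 13.3 and 3.27. NW_021131367.1 at 1–329, another place at the first base, had H3K9me3 folds of 8.23 and 9.88 and H3K27me3 folds of 4.88 and 5.11 at these stages, with no diapause peak of either mark.

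NW_021137811.1 at 286–1310 and NW_021133086.1 at 256–822 had the same form, and both were also among the 4 strongest H3K27me3 places listed at non-diapause with none at diapause. Their non-diapause folds were 6.21 and 6.11 for H3K9me3 and 6.16 and 5.52 for H3K27me3. The other 2 of those 4 were NW_021131393.1 at 1322–2102, with a non-diapause H3K27me3 fold of 6.27 and a weak diapause H3K9me3 peak of 2.01, and NW_021131783.1 at 48–540, with 5.68 and no diapause peak.

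By rank in their own list, the 4 named places with a diapause H3K9me3 peak and no non-diapause one stood between percentile 90.4 and 98.0. The 4 of the opposite kind stood between 94.4 and 99.5. They were picked for the highest folds in that same list, so high ranks follow from the choice. These ranks therefore do not compare the directions. The strongest place with the diapause peak lay on NW_021133857.1 at 387–1078, with a fold of 5.46 at diapause and 3.86 at pre-diapause. NW_021137210.1 at 476–856 had a diapause fold of 4.86 and no other H3K9me3 peak, but an H3K27me3 fold of 4.54 at pre-diapause. NW_021133648.1 at 289–656 and NW_021133099.1 at 1255–1646 had diapause folds of 4.52 and 4.09 and pre-diapause folds of 4.84 and 4.06. All 4 lay on scaffolds without an inner place.

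Among H3K27me3 peaks listed at diapause with none at non-diapause, NW_021131459.1 at 70–456 led with 8.87, after 9.64 at pre-diapause. H3K9me3 was listed there at pre-diapause only, with 10.0. NW_021133079.1 at 384–761 had a diapause H3K27me3 fold of 5.96 and no peak in any other list. NW_021133648.1 recurred here with 4.94. NW_021132681.1 at 292–668 had a diapause H3K27me3 fold of 4.94 and H3K9me3 folds of 4.36, 4.29 and 5.30, so that H3K9me3 was listed at all 3 stages and H3K27me3 from pre-diapause on.

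H3K9me3 at all 3 stages without any H3K27me3 was found at 10 scaffold-start places (2.79%, 1.34–5.06), against 1.29% of all places and 1.52% of inner places. The named 4 were of middling rank. NW_021133029.1 at 924–1535 had folds of 3.32, 3.70 and 3.87, and NW_021132396.1 at 241–1326 had 3.26, 3.57 and 2.65. NW_021135515.1 at 944–1594 had 3.55, 3.39 and 2.36, and NW_021133364.1 at 38–544 had 3.09, 3.93 and 2.90. The reverse, H3K27me3 throughout and H3K9me3 never, was found at 2 places (0.557%, 0.0675–1.998), against 2.02% of all places and 4.04% of inner places. They were NW_021135204.1 at 265–953, with folds of 2.73, 2.65 and 3.34, and NW_021134747.1 at 828–2132, with 2.26, 2.46 and 2.80.

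Peaks confined to the pre-diapause stage, in either mark, made up 120 scaffold-start places (33.4%, 28.6–38.6), against 32.4% of all places. The strongest H3K9me3 ones were NW_021132777.1 at 351–679, with 5.96 and an H3K27me3 fold of 4.01, and NW_021131699.1 at 202–530, with 5.83 and no H3K27me3. For H3K27me3 they were NW_021135827.1 at 69–433 with 5.18 and NW_021137791.1 at 1396–1764 with 5.08, neither with H3K9me3.

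The converse, a place called at non-diapause and diapause and missed at pre-diapause, was rare, with 7 places (1.95%, 0.787–3.98) against 1.34% of all places. Of these NW_021134528.1 at 77–641 stood out in strength, with H3K9me3 folds of 7.72 and 7.78 and H3K27me3 folds of 5.35 and 5.93 at the 2 stages. It was chosen after its values were seen. H3K9me3 at non-diapause and diapause with nothing else accounted for 4 of the 7.

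The 3 widest places were weak in fold, which is averaged over the peak. NW_021133322.1 at 1123–7380 spanned 6258 bp, with H3K9me3 folds of 1.92, 2.25 and 1.73 and a pre-diapause H3K27me3 fold of 1.84. NW_021130637.1 at 718–4608 had folds from 2.03 to 2.30 in 5 lists, and NW_021131835.1 at 1604–4643 from 2.49 to 3.12 in 3 lists. All 3 lay on scaffolds with inner places. Some other places wider than 2000 bp ranked high. NW_021137332.1 at 150–2679 had H3K9me3 folds of 5.20 and 6.33 at non-diapause and pre-diapause, at percentiles 88.8 and 94.0. NW_021137606.1 at 312–2316 stood at or above percentile 92.3 in every list.

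The limit of 2000 bp did not fall at a break in the data. The 2 places just inside it were NW_021136935.1 at 1996–2345, with a single non-diapause H3K9me3 fold of 2.42, and NW_021137833.1 at 1990–2349, with folds from 4.21 to 5.12 in every list but pre-diapause H3K9me3. The 2 just outside were NW_021136938.1 at 2003–2532, with pre-diapause folds of 2.91 and 2.90 for H3K9me3 and H3K27me3, and NW_021133576.1 at 2029–2468, with H3K9me3 folds of 2.20 and 1.90 at pre-diapause and diapause.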

How the data were processed

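ChIP-seq of 9 samples was deposited as 6 broad-peak lists, 1 for each mark and stage; the 3 inputs had no list among those used here. The submitters' processing notes name Bowtie2 and MACS2, besides Picard, deepTools and ChIPseeker, and give no settings. Genome build, pooling and use of the inputs are not given in the sources used here. Stage and mark came from the titles. The deposited fold enrichment is a ratio over background, averaged over the peak. The deposited score is 10 times the −log10 q and was not used. The deposited −log10 p and −log10 q come from the authors' peak caller, with a smallest −log10 q of 2.01 on scaffolds. Weaker places are not listed, so no peak does not mean no mark. Depth is unknown, since peak lists carry no totals.

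The 12 peaks of the NC_ sequence were left out, and 29318 were merged where they shared at least 1 bp. Positions are printed 1-based, so each start is 1 more than in the deposited lists. Shares carry exact Clopper-Pearson 95% intervals, differences of shares Newcombe intervals, and density ratios exact conditional binomial intervals. Intervals cover counting error only. With 1 list a group, no test and no p-value is given. Merging and classing gave back all 2466 places of simulated lists. In those lists the peaks of a place always overlapped and places lay far apart. This checked the code only, and not places built from chained peaks. The members and classes were chosen with earlier results of these data known. Named places are those with the highest lowest rank in all 6 lists (10), the 4 highest folds in each direction between non-diapause and diapause per mark, up to 4 of a single mark throughout, the 3 widest, 2 on each side of the limit and 2 per mark at pre-diapause only. Scaffold lengths and sequences were not used here. None of the 17154 genes of the gene table used here is put on a named scaffold (0 genes), so nearby genes were not analysed here. Python 3.11.15, numpy 2.4.6, pandas 2.3.3, scipy 1.17.1, statsmodels 0.14.6 and matplotlib 3.10.9 were used. The alternatives are given at the end.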

Additional observations from a re-analysis of the deposited data

Results flagged for a closer look

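The 2 marks differed from inner places in opposite directions at all 3 stages, which was not tested. The share of scaffold-start places with a peak less that of inner places was 5.09, 19.5 and 8.41 percentage points for H3K9me3 at non-diapause, pre-diapause and diapause, and -4.85, -10.3 and -6.79 points for H3K27me3. Without the scaffold with the most inner places the differences were 0.139, 11.8 and 4.29 points for H3K9me3, and -3.91, -9.65 and -3.28 points for H3K27me3.

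From non-diapause to diapause the number of scaffold-start places with H3K9me3 differed by -11 (139 against 150) and that with H3K27me3 by 1 (109 against 108). In lists of equal length, which left 279 scaffold-start places, the direction for H3K9me3 turned, with 49.5% at diapause and 44.1% at non-diapause. The shares of all places in those lists are not given here. Each number comes from 1 list, and no test of this difference was made.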

How the results depend on the processing

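With −log10 q of at least 3, or with peaks within 500 bp merged, all 34 results compared stayed within their counting error or within 1.5 times their count. With the 3505 strongest peaks of each list, pre-diapause shares were lower (58.1% for H3K9me3 and 41.6% for H3K27me3) and others higher (49.5% for diapause H3K9me3, 37.3 and 38.4% for H3K27me3 at non-diapause and diapause). Diapause H3K9me3 then stood above non-diapause (44.1%), with 58 places called at non-diapause alone of the pair and 73 at diapause alone. Shares of all places in these shorter lists are not given. The differences from inner places were 9.44 points for H3K9me3 only, -6.38 for H3K27me3 only and -3.07 for both marks. Counting a list only where its peaks covered 50% of the place gave 40.1% with both marks, 6.41% in all lists, 34.5% for non-diapause H3K9me3, and 23.7 and 25.3% for non-diapause and diapause H3K27me3. A limit of 1000 bp gave a density ratio of 3.08 and a difference for H3K27me3 only of -24.7 points, and a limit of 5000 bp a ratio of 1.73. With 5000 bp, places with a non-diapause and no diapause peak numbered 110 for H3K9me3 and 62 for H3K27me3, and 96 places had H3K9me3 in the reverse order. Scaffolds reaching 50 kb held 118 scaffold-start places, with 25 and 17 H3K9me3 and 13 and 11 H3K27me3 places in the same orders. A pair of settings was added after seeing the data. Scaffolds with an inner place held 156 places, with 36 and 29, and 22 and 13. Without NW_021135154.1 the difference for H3K27me3 only was -10.9 points. Numbers fell with fewer scaffolds by construction, and the cause of the other shifts was not tested. No paired analysis was possible because each mark and stage had 1 list. Unknown depth limits all comparisons between lists.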

Other observations

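On 10 scaffolds there were 2 scaffold-start places each. A further place lay downstream of 159 scaffold-start places, at a median distance of 16484 bp (quartiles 4569 and 32595 bp), and within 10000 bp for 68 of them. The median width was 645.5 bp for places with both marks, 436 bp for H3K9me3 only and 354.5 bp for H3K27me3 only. A place spans the merged peaks of all its lists, so places in more lists tend to be wider by construction. These widths therefore do not describe the marks themselves. In the 37 places called in all 6 lists, pre-diapause peaks covered the largest median share of the place, 93.3% for H3K9me3 and 90.2% for H3K27me3. Diapause peaks covered the smallest, 76.8 and 70.8%, and non-diapause peaks 88.9 and 81.3%. The 4 places that began at the first base of their scaffold all had both marks at non-diapause and pre-diapause. NW_021134836.1 and NW_021135068.1 also had both at diapause, and NW_021131367.1 and NW_021134985.1 had neither. Among all places the former combination made up 11.0% and the latter 5.58%. With 4 places, no trait of places at the first base can be read from this.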
